A study of Homo sapiens with 3 samples.

Results

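The genes described here encode 6 matrix metalloproteinases (MMP1, MMP2, MMP7, MMP9, MMP10 and MMP14) and 3 proteins of the plasminogen activator system (PLAU, PLAUR and PLAT). They were taken by gene symbol, and all 9 were found among the 29960 genes of the deposited table. The cells were 5637, an established human bladder cancer line. RNA came from single-cell clones of the parental line (genotype given as WT) and of its gemcitabine-resistant derivative, all untreated at harvest and grown in RPMI with fetal bovine serum. The labels ascribe resistance to an acute gemcitabine treatment, whereas the methods describe repeated exposure at rising doses. The study describes 3 clones per group, of which 1 parental and 2 resistant libraries carried a label here and were used as single libraries. The deposited group means cover the clones of a group as the authors averaged them.

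Matrix metalloproteinases are zinc-dependent enzymes that cut collagens, gelatins and other proteins of the extracellular matrix. Most are secreted as inactive precursors, and a few, such as MMP14, sit in the plasma membrane. The plasminogen activators PLAU (urokinase) and PLAT (tissue-type activator) convert plasminogen to plasmin, a broad protease that degrades fibrin and can activate metalloproteinase precursors. PLAUR is the membrane-anchored receptor that holds urokinase at the cell surface. Both systems are known for their part in invasion of carcinomas, including those of the bladder.

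Promoters of several of these genes are known to respond to AP-1 and ETS transcription factors, so windows from 250 bases before to 50 bases after the transcription start were read for them from RefSeq (build GRCh38.p14) and searched on both strands for 4 motifs. The AP-1 motif was written as TGANTCA. For ETS factors the letters AGGAAG were used. The NF-kB motif was a run of 3 G followed, after 2 bases of any kind, by TTTCC. The TATA box was searched as TATAAA. A window was found for 5 of the 9 genes. Those of MMP10 and MMP7 are shown because both genes lie in the same cluster and were read at very different levels, and those of PLAUR and PLAU because receptor and ligand were both higher in the resistant libraries. Capitals mark the matches.
MMP10, chr11:102780579-102780878, minus strand: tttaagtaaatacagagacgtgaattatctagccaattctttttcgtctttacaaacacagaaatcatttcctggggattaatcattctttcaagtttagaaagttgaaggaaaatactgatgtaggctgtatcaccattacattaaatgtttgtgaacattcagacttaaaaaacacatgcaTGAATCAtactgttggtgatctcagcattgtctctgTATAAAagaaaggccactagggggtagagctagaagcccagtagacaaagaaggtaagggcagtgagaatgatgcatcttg
MMP7, chr11:102530698-102530997, minus strand: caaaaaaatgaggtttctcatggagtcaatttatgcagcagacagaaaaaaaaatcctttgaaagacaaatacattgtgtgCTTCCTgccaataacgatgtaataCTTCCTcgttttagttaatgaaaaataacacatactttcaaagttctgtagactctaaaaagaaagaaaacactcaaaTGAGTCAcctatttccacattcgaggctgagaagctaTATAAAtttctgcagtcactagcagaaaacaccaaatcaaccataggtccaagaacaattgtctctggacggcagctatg
PLAUR, chr19:43670120-43670419, minus strand: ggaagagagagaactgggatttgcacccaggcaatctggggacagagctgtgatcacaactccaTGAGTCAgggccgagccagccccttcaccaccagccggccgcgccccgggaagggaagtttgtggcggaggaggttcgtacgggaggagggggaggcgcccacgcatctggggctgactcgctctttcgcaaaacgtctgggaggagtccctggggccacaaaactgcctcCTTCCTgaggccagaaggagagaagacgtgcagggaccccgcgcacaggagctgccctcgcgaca
PLAU, chr10:73910882-73911181, plus strand: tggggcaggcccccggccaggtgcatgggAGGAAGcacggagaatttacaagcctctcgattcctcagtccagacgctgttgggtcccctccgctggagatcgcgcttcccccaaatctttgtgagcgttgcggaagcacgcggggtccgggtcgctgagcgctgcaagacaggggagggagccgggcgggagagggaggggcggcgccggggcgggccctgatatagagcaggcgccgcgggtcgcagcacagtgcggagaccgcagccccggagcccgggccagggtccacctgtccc
The MMP10 window held TGAATCA from 67 bases and TATAAA from 31 bases before the start. In the MMP7 window TGAGTCA also began 67 bases before the start, with TATAAA at 30 bases and the ETS letters on the reverse strand (CTTCCT as printed) at 169 and 145 bases. PLAUR had TGAGTCA at 186 bases and the reverse-strand ETS letters at 15 bases before the start, while the PLAU window had the ETS letters at 221 bases. No matches overlapped. The AP-1 letters were present in 7.71% of 35116 promoter windows, the ETS letters in 33.6%, the NF-kB letters in 1.91% and the TATA letters in 11.5%. The NF-kB letters had no match in the windows of these 5 genes, and the MMP14 window and a second PLAU window held none of the 4 motifs.

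In the 3 libraries, 14475531 (parental 1), 15836788 (resistant 1) and 17461941 (resistant 2) reads were counted on genes. Counts were scaled to CPM with TMM factors, and 3 reads, the floor used here, corresponded to 0.173 to 0.213 CPM. Intervals for single libraries are 95% Poisson intervals and cover counting error only. The comparison of resistant with parental libraries used edgeR's quasi-likelihood test over 15643 genes. The spread of a gene came from the 2 resistant clones (1 residual degree of freedom). It was drawn toward a value shared over genes, with a median weight of 8.945 degrees of freedom. An SE is therefore mostly not the spread of its own gene. The lone parental library was assumed to vary like the resistant ones, so the p-values hold no spread measured between parental clones. At an adjusted p under 0.05, 137 genes were called (0.876%), of which 46 (0.294%) had more and 91 (0.582%) had less RNA in the resistant libraries. All 6 epithelial markers were read in every library, with sums of 7286 to 9472 CPM, while the 3 endothelial and 3 leukocyte markers found in the table summed to at most 2.02 CPM in any library. Of 5 fibroblast markers found, COL1A1 and COL1A2 were read at 57.8 to 113 CPM, and the other 3 held at most 4 reads in any library. The basal keratin KRT5 fell from 272 CPM in the parental library to 9.78 and 13.8 CPM in the resistant libraries (edgeR, log2 fold change -4.52 ± 0.38 SE, adjusted p = 0.0006). The authors' means for KRT5, 11540 for parental and 2047 for resistant clones, gave a smaller log2 ratio of -2.49, and the 3 libraries stood at 0.34, 0.0697 and 0.0998 of the mean of their own group. The part of this shift in the results below was not tested.

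None of the 9 genes passed the test between resistant and parental libraries, although PLAU, PLAUR, MMP1, MMP14 and PLAT were read at a higher CPM in each resistant library than in parental 1. MMP2 was lower in both, and MMP10 lay on either side. In bulk RNA, fewer cells that express a gene and less RNA per cell cannot be told apart. MMP7 and MMP9 had too few reads to enter the test. Of the 7 genes tested, 0 had an adjusted p under 0.05 by edgeR, against 0.876% of all genes, and 3 (MMP1, PLAU and PLAUR) had an unadjusted p under 0.05, against 9.7% of all genes (4.85% in the higher direction). By DESeq2 the count was 1 of 7, PLAU, against 1.67% of genes with an adjusted p. Both resistant libraries were above the parental library for 5 of the 7 genes and for 35.2% of all genes, and both were below it for 1 of the 7 and for 34.5% of all genes. The median log2 fold change of the 7 was 0.71, beside 0.03 over all genes tested. From the authors' group means their median log2 ratio was 0.25, beside 0.02. A ratio of these means of at least 1.5-fold was found for 1 of the 7, PLAU, beside 9.04% of genes with such a ratio in the higher and 9.41% in the lower direction. The 9 genes were chosen with earlier results of these data known, and all library ratios share the 1 parental library. The shares beside all genes are therefore description only.

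**Figure D1:**
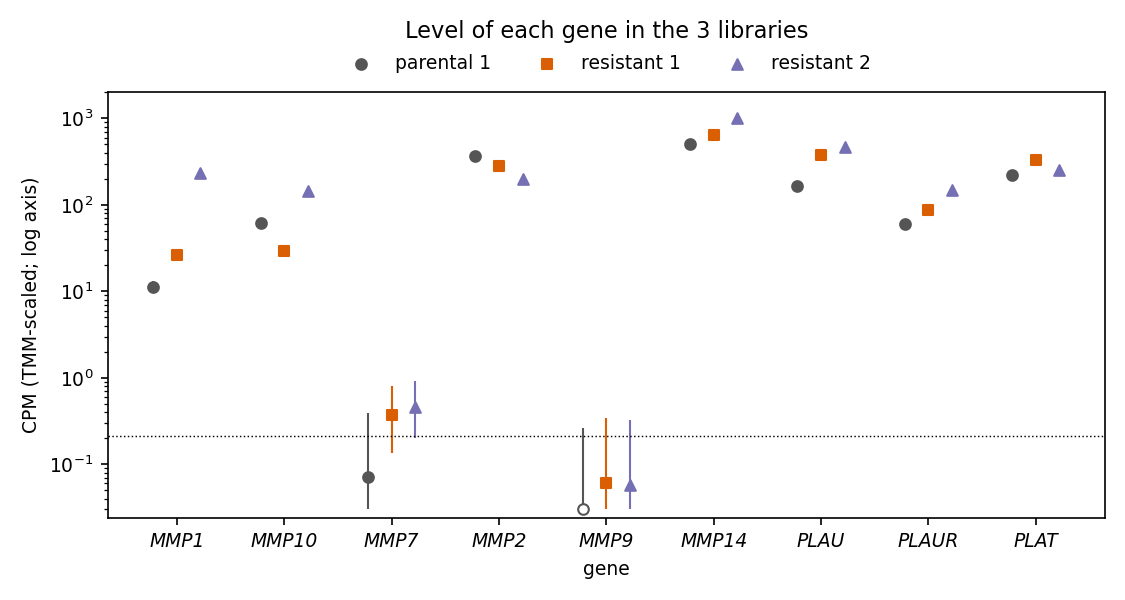
Level of each of the 9 genes in CPM (log axis) in parental library 1 and resistant libraries 1 and 2. Bars are 95% Poisson intervals, the dotted line marks 0.213 CPM, the highest of the floors of 3 reads, and the open symbol at the bottom is a library with 0 reads. MMP7 and MMP9 sit near or below that line, while MMP14 is the highest gene in each library.

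Levels between genes were compared per length, in the authors' FPKM. MMP14 was the highest of the 9 genes in all 3 libraries, at 131 FPKM in the parental library and 179 and 266 FPKM in resistant libraries 1 and 2. In the parental library it was followed by MMP2 (94.8 FPKM), PLAT (62.4 FPKM), PLAU (60.6 FPKM), PLAUR (36.6 FPKM), MMP10 (34.3 FPKM) and MMP1 (5.58 FPKM). PLAU moved to the second place in both resistant libraries, at 145 and 176 FPKM. The order below it differed between the resistant libraries: MMP1 stood seventh in library 1, at 13.8 FPKM, and just below PLAU in library 2, at 119 FPKM. The median over all tested genes was 5.59 to 6.01 FPKM, so the MMP1 level of the parental library was about that of a typical gene. With 1 parental library, a difference between neighbours such as PLAT and PLAU could not be set against a spread between clones.

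PLAU (ENSG00000122861, chromosome 10, 75668935 to 75677255, plus strand) encodes urokinase. It had the highest ratio of the authors' group means among the 7 tested genes, 1.88, with 2758 normalized counts for parental and 5194 for resistant clones. The parental library gave 165 CPM (interval 159 to 172) and the resistant libraries 373 CPM (364 to 383) and 471 CPM (461 to 481). Both resistant libraries were thus well above the parental library, and they differed from each other by a ratio of 1.26. The log2 fold change was 1.35 ± 0.39 (SE), with an adjusted p of 0.22 in edgeR and 0.0447 in DESeq2. Each of the 3 libraries lay within 1.34 times the authors' mean of its own group. An overlapping gene on the opposite strand, C10orf55, held 9, 20 and 38 reads in parental 1, resistant 1 and resistant 2. Whether the counting used strand is not given in the sources used here, so reads in the shared part cannot be told apart.

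PLAUR (ENSG00000011422, chromosome 19, 44150247 to 44174699, minus strand), the urokinase receptor, gave 60.6 CPM (56.6 to 64.8) in parental 1, 86.3 CPM (81.8 to 90.9) in resistant 1 and 149 CPM (144 to 155) in resistant 2. The resistant libraries were both higher, but stood further from each other (a ratio of 1.73) than for PLAU. Its log2 fold change was 0.96 ± 0.43 (SE) and the adjusted p was 0.511 (edgeR). By the authors' group means the difference was smaller, 1216 against 1450 normalized counts, a log2 ratio of 0.25. On the scale of those means the parental library stood at 0.721 of the mean of the parental clones and resistant library 2 at 1.52 times that of the resistant clones.

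PLAT (ENSG00000104368, chromosome 8, 42032236 to 42065242, minus strand) encodes the tissue-type activator. The parental library gave 222 CPM (214 to 230), and the resistant libraries 335 CPM (326 to 344) and 255 CPM (247 to 262). Here resistant library 1 was the higher of the resistant pair, the opposite of PLAU and PLAUR. The log2 fold change over the libraries was 0.41 ± 0.38 (SE; edgeR, adjusted p = 0.847). In the authors' means the direction was opposite, 3509 normalized counts for parental and 3417 for resistant clones (log2 ratio -0.038). PLAT was the single gene of the 7 for which libraries and group means differed in direction, which was so for 16.0% of all tested genes whose group means averaged 10 or more.

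MMP14 (ENSG00000157227, chromosome 14, 23305766 to 23318236, plus strand) is a membrane-type metalloproteinase known to activate the MMP2 precursor at the cell surface. Parental 1 gave 502 CPM (490 to 514), resistant 1 645 CPM (633 to 658) and resistant 2 999 CPM (984 to 1013). Both resistant libraries were higher, resistant library 2 by a ratio of 1.99 (counting interval 1.94 to 2.05) and library 1 by 1.29 (1.25 to 1.33). The log2 fold change was 0.71 ± 0.40 (SE), which did not pass the test (edgeR, adjusted p = 0.657). The authors' means were 7560 and 9347 normalized counts, a log2 ratio of 0.31.

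MMP2 (ENSG00000087245, chromosome 16, 55423612 to 55540603, plus strand), gelatinase A, was the single tested gene of the 9 with less CPM in both resistant libraries. The parental library held 364 CPM (354 to 374), and the resistant libraries 279 CPM (271 to 287) and 201 CPM (195 to 208). The log2 fold change was -0.60 ± 0.37 (SE; edgeR, adjusted p = 0.695). The authors' means, 4401 for parental and 3693 for resistant clones, gave a log2 ratio of -0.25. MMP2 and MMP14, its activator, therefore had fold changes of opposite sign in the same libraries, and neither was past the threshold. In resistant library 2, where MMP14 was highest, MMP2 was lowest.

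MMP9 (ENSG00000100985, chromosome 20, 44637547 to 44645200, plus strand), gelatinase B, had 0 reads in the parental library and 1 read in each resistant library, at or below the floor of 3 reads in all. The authors' means were 0.992 and 1.36 normalized counts, and no fold is given. MMP7 (ENSG00000137673, chromosome 11, 102391239 to 102401484, minus strand), or matrilysin, had 1 read in the parental library and 6 and 8 reads in the resistant libraries. The ratio of resistant library 2 to the parental library was 6.49, with a counting interval of 0.87 to 288. The authors' group means for it were 4.07 and 4.4 normalized counts, close to each other. Neither gene had reads enough to show a difference at this depth.

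MMP1 (ENSG00000196611, chromosome 11, 102660651 to 102668891, minus strand), the interstitial collagenase, had the largest fold change of the 9 genes and the widest spread between clones. The parental library held 159 reads, or 11.3 CPM (9.60 to 13.2). Resistant library 1 held 430 reads, or 26.3 CPM (23.9 to 28.9), and resistant library 2 held 4100 reads, or 236 CPM (229 to 243). The resistant libraries differed by a ratio of 8.98 (counting interval 8.13 to 9.94), more than resistant library 1 differed from the parental library (2.33, 1.94 to 2.81). A gap of at least 5-fold in that direction was seen for 0.71% of all tested genes. The log2 fold change was 3.54 ± 1.07 (SE), with an adjusted p of 0.255 in edgeR and 0.806 in DESeq2, and without any filter on low counts 4.53e-11 in edgeR.

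The group means gave another picture of MMP1. They were 939 normalized counts for parental and 1274 for resistant clones (log2 ratio 0.44). On the scale of these means the parental library stood at 0.174 of the mean of the parental clones, and a place at least 5-fold below it was found for 0.201% of the 14453 tested genes whose parental mean reached 10. Resistant library 1 was at 0.301 of the mean of its group and resistant library 2 at 2.74 times. When the parental library was replaced by the authors' parental mean, an alternative chosen after seeing the data, the log2 ratio of the 2 resistant libraries to it was 1.04. That value averages libraries on opposite sides of the parental mean of 939. On its scale resistant library 1 stood at 383 normalized counts, below the mean, and resistant library 2 at 3488, above it.

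MMP10 (ENSG00000166670, chromosome 11, 102641234 to 102651359, minus strand), or stromelysin 2, lies beside MMP1. Its parental library held 62.0 CPM (58.0 to 66.3), resistant library 1 29.0 CPM (26.4 to 31.7) and resistant library 2 145 CPM (140 to 151). The parental value thus lay between those of the resistant libraries, which differed by a ratio of 5.01 (4.54 to 5.54). The log2 fold change was 0.49 ± 0.71 (SE; edgeR, adjusted p = 0.929). The authors' means of 842 and 938 normalized counts gave a log2 ratio of 0.16. The parental library was near its group mean (1.06 times), unlike for MMP1, and resistant libraries 1 and 2 were at 0.45 and 2.29 times theirs.

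MMP1 and MMP10 were the 2 of 7 genes with resistant libraries at least 2-fold apart, a gap found for 10.2% of all tested genes (6.71% with library 2 the higher). For the other 5 genes the ratio of library 2 to library 1 ranged from 0.721 to 1.73. WTAPP1, a pseudogene on the opposite strand that overlaps both MMP1 and MMP10, held 7, 17 and 27 reads in parental 1, resistant 1 and resistant 2, few beside those of either gene. MMP3, the paralogue of MMP10 in the same cluster, had 0, 1 and 0 reads, and how reads shared by paralogues were counted is not given in the sources used here.

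**Figure D2:**
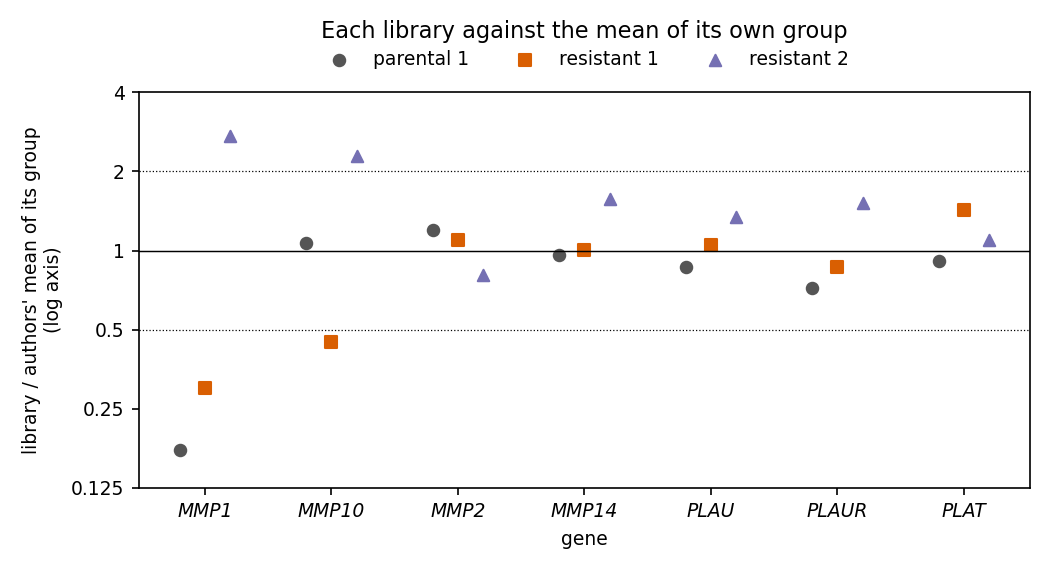
Each library divided by the authors' mean of its own group (log axis), for the 7 tested genes. Solid line, equal to the group mean; dotted lines, 0.5 and 2 times. The parental library is at 0.174 for MMP1, and resistant libraries 1 and 2 lie on both sides of the dotted lines for MMP1 and MMP10, while the other 5 genes stay between 0.721 and 1.58.

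**Figure D3:**
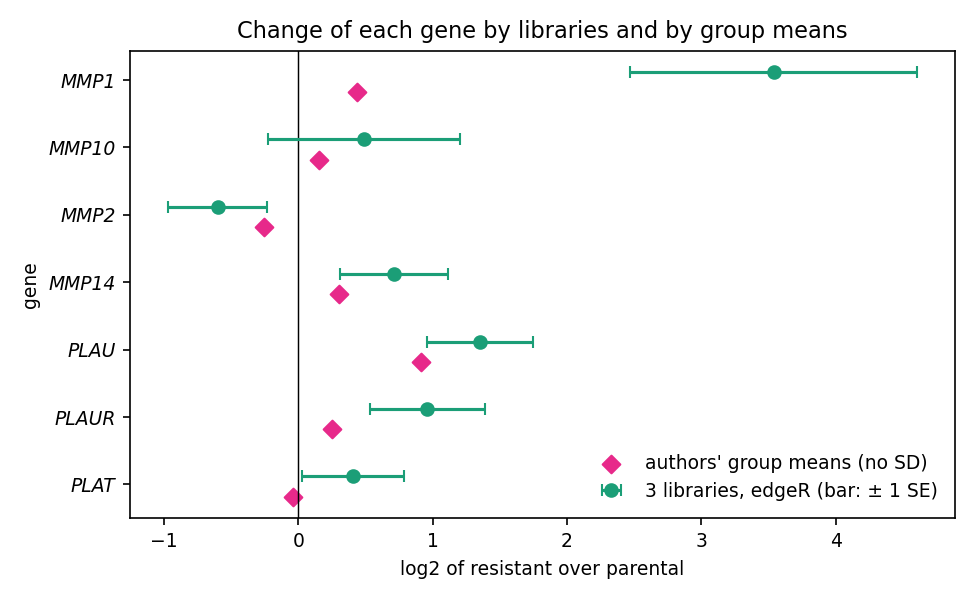
Log2 of resistant over parental for the 7 tested genes, from the 3 libraries (circles, edgeR, bars ± 1 SE) and from the authors' group means with a pseudocount of 1 (diamonds, no SD). The 2 estimates are furthest apart for MMP1, 3.54 against 0.44, and PLAU has the highest value by the group means, 0.91.

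MMP1, MMP10 and MMP7 belong to the metalloproteinase cluster on the long arm of chromosome 11, which also holds MMP13 (collagenase 3) and MMP12 (macrophage elastase; 37, 20 and 21 reads in parental 1, resistant 1 and resistant 2). MMP13 was lower in both resistant libraries, with 10 and 17 reads against 274 in the parental library, or 0.611 and 0.979 CPM against 19.4 CPM. Its log2 fold change was -4.59 ± 0.51 (SE; edgeR, adjusted p = 0.00258, range over the alternatives 6.08e-14 to 0.00834). The authors' means, 234.6 for parental and 34.3 normalized counts for resistant clones, gave a smaller log2 ratio of -2.74. Resistant libraries 1 and 2 stood at 0.26 and 0.421 of the mean of their own group for MMP13, and the parental library at 1.2 times its own. The MMP13 share of the reads on MMP1, MMP10 and MMP13 together was 21.0% of 1307 reads in the parental library (exact interval 18.8 to 23.3%), 1.09% of 914 reads in resistant library 1 (0.526 to 2.00%) and 0.256% of 6638 reads in resistant library 2 (0.149 to 0.41%). The MMP1 share was 12.2%, 47.0% and 61.8% in the same order, with the parental value resting on a library at 0.174 of its group mean. Taken from the authors' means, the MMP1 share was 46.6% for parental and 56.7% for resistant clones, and the MMP13 share 11.6% and 1.53%. Of MMP1, MMP10 and MMP13, MMP13 alone passed the test, and the difference between the genes was not tested.

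Within 1 Mb of the span from MMP7 to MMP1, 15 genes were tested, 4 of them metalloproteinases. The other 11, among them WTAPP1, the apoptosis inhibitors BIRC2 and BIRC3 and the Hippo pathway coactivator YAP1, had a median log2 fold change of 0.03, with 6 higher and 5 lower, and 0 had an adjusted p under 0.05 (edgeR). By the authors' group means 3 were higher and 8 lower, with a median of -0.08 and a range of -0.33 to 0.52. The 854 tested genes of chromosome 11 had a median log2 ratio of -0.31 by the group means. Between the resistant libraries the 11 neighbours had ratios of library 2 to library 1 from 0.377 to 1.50 with a median of 1.01, below the ratios of MMP1 and MMP10. Both ends of that range rest on few reads. The lowest came from 20 and 8 reads in resistant libraries 1 and 2 (counting interval 0.144 to 0.893). The highest was WTAPP1, which overlaps MMP1 and MMP10, with 17 and 27 reads (0.786 to 2.93).

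**Figure D4:**
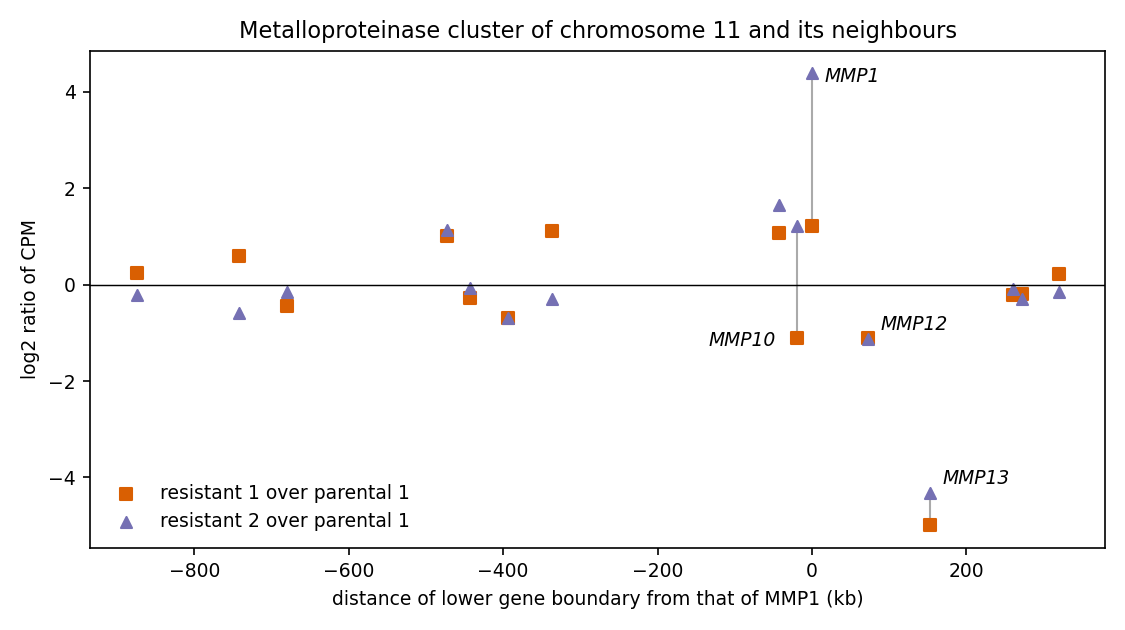
Log2 ratio of CPM of resistant library 1 (squares) and 2 (triangles) over the parental library for the 15 tested genes around the cluster, by distance in kb of the gene's lower boundary from that of MMP1. Grey lines join both values of the named metalloproteinases; MMP1 and MMP10 have the longest lines, and MMP13 is lowest in both libraries.

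Other genes of both systems were taken from 6 lists of 76 genes, of which 71 were found in the table and 60 tested. By edgeR 1 gene rose and 2 fell at an adjusted p under 0.05, beside 0.876% of all genes, and the other 57 did not pass. Among the other metalloproteinases, 1 of 10 tested rose and 1 fell (MMP13, above), against 0.294% and 0.582% of all genes. MMP17, which is held at the membrane by a lipid anchor, rose from 7.59 CPM in the parental library to 34.8 and 53.7 CPM in resistant libraries 1 and 2. Its log2 fold change was 2.54 ± 0.46 (SE; edgeR, adjusted p = 0.0344), but the adjusted p was 0.0582 when genes with a total count under 30 were left out. The authors' means were 112 and 465 normalized counts. MMP28 (epilysin) had 63.9, 10.1 and 63.0 CPM in parental 1, resistant 1 and resistant 2, a further case in which the resistant libraries stood apart. MMP19 had 4.05, 0.978 and 2.07 CPM in the same order.

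None of the 6 tested metalloproteinase inhibitors passed the test (edgeR), against 0.876% of all genes called. An unadjusted p under 0.05 (edgeR) was found for 1 of the 6, against 9.7% of all genes. By DESeq2 0 had an adjusted p under 0.05, against 1.67% of genes with an adjusted p. TIMP1, a secreted inhibitor of most metalloproteinases, gave 11.9, 32.4 and 29.5 CPM in parental 1, resistant 1 and resistant 2, with a log2 fold change of 1.38 ± 0.39 (SE; edgeR, adjusted p = 0.207). The resistant pair lay close together and above the parental value, as did the authors' means, 197 against 406 normalized counts. TIMP2, which takes part in MMP2 activation by MMP14, had 178, 189 and 176 CPM. TIMP3 had 61.6, 67.8 and 115 CPM, and TIMP4 at most 2.25 CPM in any library. RECK, a membrane-anchored inhibitor, had 7.38, 3.67 and 4.15 CPM.

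Of 7 tested inhibitors on the list for the plasminogen system, 0 passed (edgeR), against 0.876% of all genes called. An unadjusted p under 0.05 (edgeR) was found for 2 of the 7, against 9.7% of all genes. By DESeq2 0 had an adjusted p under 0.05, against 1.67% of genes with an adjusted p. SERPINB2, an inhibitor of urokinase, had 29.4, 44.1 and 116 CPM in parental 1, resistant 1 and resistant 2, while the authors' means were 932 for parental and 818 for resistant clones, opposite in direction to the libraries. SERPINE2, protease nexin 1, had 209, 124 and 147 CPM, and its log2 fold change of -0.62 ± 0.35 (SE) had an adjusted p of 0.662 (edgeR). SERPINF2, the plasmin inhibitor, had 1.56, 4.34 and 4.38 CPM, and SERPINI1 at most 1.61 CPM.

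PLG, the precursor of plasmin, held at most 2 reads in any library, at or below the floor. None of the 7 tested genes of the list of plasminogen and its receptors passed (edgeR), against 0.876% of all genes called. An unadjusted p under 0.05 (edgeR) was found for 0 of the 7, against 9.7% of all genes. By DESeq2 0 had an adjusted p under 0.05, against 1.67% of genes with an adjusted p. S100A10, which binds plasminogen together with annexin A2, had 341, 279 and 232 CPM. LRP1, an endocytic receptor that clears inhibitor-bound urokinase, had 305, 183 and 195 CPM (edgeR, adjusted p = 0.588), and MRC2, a collagen receptor that associates with PLAUR, 104, 128 and 160 CPM. PLGRKT, a plasminogen receptor, was at 11.1, 9.29 and 8.18 CPM.

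Of 10 tested genes on the list of activating proteases, not all of which encode proteases, 1 fell, against 0.582% of all genes. TMPRSS4, a membrane serine protease, went from 48.6 CPM in the parental library to 0.917 and 0.806 CPM in the resistant libraries, with a log2 fold change of -5.81 ± 0.43 (SE; edgeR, adjusted p = 0.000314, range over the alternatives 7.62e-28 to 0.0017). The authors' means fell from 554 to 17.4 normalized counts. CTSB, the lysosomal protease cathepsin B, had 131, 242 and 334 CPM (edgeR, adjusted p = 0.363), and PCSK5, a proprotein convertase, 44.3, 24.6 and 13.8 CPM (edgeR, adjusted p = 0.335). TMPRSS2 had 35.5, 12.8 and 40.5 CPM, again with the resistant libraries on both sides of the parental one.

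The 20 transcription factors of the sixth list, which includes AP-1, ETS and NF-kB members, were all tested. By edgeR 0 passed, against 0.876% of all genes called. An unadjusted p under 0.05 (edgeR) was found for 3 of the 20, all higher, against 9.7% of all genes (4.85% in the higher direction). The ETS factor ETV5 was called by DESeq2, with an adjusted p of 0.00322, and by edgeR with DESeq2 size factors or without a filter. It had 0.568, 4.46 and 12.7 CPM in parental 1, resistant 1 and resistant 2, and an adjusted p of 0.0772 in edgeR. FOSL1, an AP-1 subunit, had 436, 624 and 736 CPM, ETV1 20.1, 38.2 and 43.8 CPM, and the NF-kB subunit RELB 30.8, 27.4 and 87.4 CPM. For RELB the parental value lay between those of the resistant libraries, and the ratio of library 2 to library 1 was 3.18. Among the other factors named here that ratio was 2.85 for ETV5, 1.18 for FOSL1 and 1.145 for ETV1. A link of any of these factors to MMP1 or MMP10 was not tested.

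**Figure D5:**
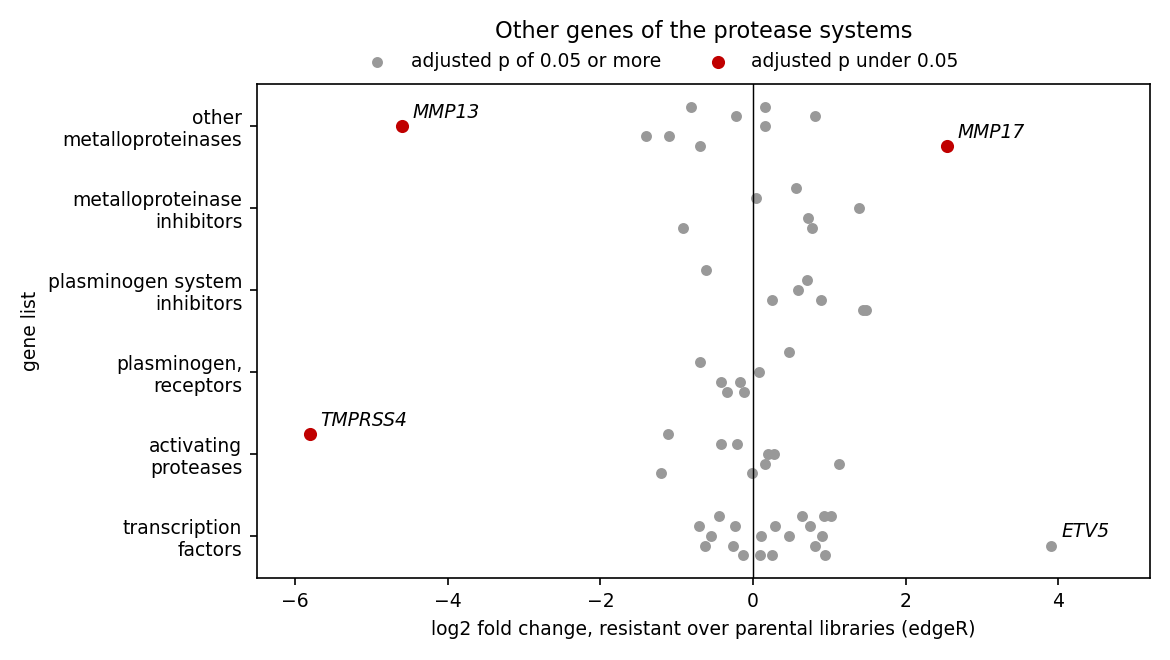
Log2 fold change of resistant over parental libraries (edgeR) for the 60 tested genes of the 6 lists, 1 point per gene, spread vertically for legibility. Red points have an adjusted p under 0.05 and are MMP13, TMPRSS4 and MMP17. ETV5, labelled in grey points, had an adjusted p of 0.0772.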

How the data were processed

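RNA-Seq libraries of 5637 clones were analysed. Per the labels, the submitters' processing notes name hg19 and CASAVA 1.8; the aligner, the counting tool and the annotation are not given in the sources used here. The authors deposited raw read counts per gene and library, FPKM (scaled by gene model length and by the reads counted on genes), and a group signal, their mean of counts divided by size factors. The table also holds the fold changes and p-values of the authors' DESeq2 comparison, which were not used, and 6 columns of libraries that carry no label here, also not used.

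Counts of 3 libraries (total 14475531 to 17461941) were filtered (filterByExpr), TMM-scaled and tested with edgeR 4.0.16 in R 4.3.3 (quasi-likelihood, Benjamini-Hochberg over 15643 genes). SEs were derived from the F statistic. DESeq2 was an alternative. The prior count of 2 in edgeR's log CPM was used for values of 1 library against 1, a pseudocount of 1 for the authors' means, and 0.2 CPM was added when the share of genes with resistant libraries apart was counted. Each library was set on the scale of the authors' means by its median ratio to the mean of its group over genes with both means of at least 100. Coordinates are those of the table. All 9 genes were named; of other lists, genes past the threshold, the 4 largest ratios of group means at a mean of at least 10, and 10 preset genes (TIMPs, serpins, PLG, MMP3, MMP13); genes outside this rule (MMP12, BIRC2, BIRC3, YAP1, WTAPP1, C10orf55 and the markers) were added with their values known. The values of 1 preset gene are not reported here. Genes and lists were chosen with earlier results of these data known. Of list genes missing by symbol, 1 was matched by identifier and a synonym (CTSL). The steps were run on simulated data in which the parental library varied like the resistant ones, so that assumption was not tested there. Python 3.11.15, pandas 2.3.3, scipy 1.17.1 and matplotlib 3.10.9 were used.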

Additional observations from a re-analysis of the deposited data

How the results depend on the processing

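The number of genes called, 137, was 235 with DESeq2 size factors in edgeR (96 higher, 139 lower), 534 without a filter on low counts (273 higher, 261 lower), 78 with a total count of at least 30 (20 higher, 58 lower), 246 with DESeq2 (121 higher, 125 lower) and 229 at an adjusted p under 0.1 (94 higher, 135 lower). Of the 9 genes, 0 were called except 1 without a filter (MMP1) and 1 with DESeq2 (PLAU). The count of 3 other genes of both systems became 5 without a filter, with ETV5 and SERPINB2 added. With a total count of at least 30 it fell to 2, with MMP17 lost and 0 genes called higher. It was 4, with ETV5 added, with DESeq2 size factors in edgeR, with DESeq2 and at an adjusted p under 0.1. MMP10 had a log2 ratio of -1.09 without resistant replicate 2, 1.22 without replicate 1 and 0.49 with both, and PLAT -0.038 by the authors' group means against 0.41. Without resistant replicate 2 the value of MMP1 was 1.21 and without replicate 1 it was 4.37. The cause of these shifts was not tested, beyond the libraries and genes each alternative leaves out. Pseudocounts of 0.5 and 10 turned no direction of the group means. The study describes the clones as independently derived, so parental 1 and resistant 1 were not treated as a pair. With 1 parental library the spread between parental clones could not be estimated.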

Other observations

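Among genes of the lists, the parental library stood at least 2-fold from the authors' mean of the parental group not only for MMP1 (0.174 of the mean) but also for SERPINB2 (0.457), ETV5 (0.44), KRT5 (0.34) and the leukocyte marker CD14 (0.277, from 3 reads), each of them below it, and such a distance was found for 1.38% of 14453 genes with a parental mean of at least 10. These genes were chosen after their values were seen. For SERPINB2 this went with a fold change over the libraries of opposite sign to that of the group means.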
